A study of Mus musculus with 2 samples.

Results

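The proximal Isl1 peaks analysed here were those peaks of the embryo Isl1 ChIP-Seq list that lay more than 1 kb and at most 10 kb from the transcription start site (TSS) to which the authors assigned them, where that TSS belonged to a RefSeq protein-coding transcript (an NM_ identifier). They numbered 5618 of 48295 peaks in the list (11.6%), of which 3129 lay upstream and 2489 downstream of the TSS. Distance to the TSS and the kind of transcript chose them, so neither is a result. The chromatin came from the cardiogenic mesoderm and heart region of C57BL/6 mouse embryos between E8.25 and E9, with 60 to 80 embryos pooled for a single ChIP sample with an antibody against Isl1. An input sample was sequenced beside it and was not analysed here, so the peaks could not be set against input signal, and a peak below is a called region and not a test of Isl1 binding. No genetic change or treatment was part of this experiment. The list gives for each peak its mm9 position, its distance to the closest TSS and a gene name, without height, enrichment or p-value, and the depth is unknown. There were no replicates to compare, so the tests below treat peaks as independent and cover counting error only. A peak list measures no expression, so the dissected tissue could not be checked against marker genes.

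Isl1 is a LIM-homeodomain transcription factor of second heart field progenitors, the cells that build the outflow tract, the right ventricle and part of the atria. LIM-homeodomain proteins contact DNA through a homeodomain that reads short sites with a TAAT core. DNA close to but outside a core promoter holds intergenic sequence, first introns and gene-proximal enhancers, and a peak there is assigned to its gene with less doubt than one far away.

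The sequences under the peaks of Isl1 itself and of several genes that the study followed as Isl1 targets are shown first, because a long stretch of a single base class lay at the centre of nearly all proximal peaks. Each is the 200 bp around the midpoint of a peak in mm9, read 5′ to 3′ on the strand of the gene, with the longest unbroken run of purines or of pyrimidines in capitals where it reached 25 bp. Upstream of the TSS lay peaks at Wnt11, a Wnt ligand of the outflow tract (chr7:105981374-105981573, + strand), Isl1 (chr13:117103538-117103737, − strand) and Fgf10, a growth factor of the second heart field (chr13:119496489-119496688, + strand).
Wnt11: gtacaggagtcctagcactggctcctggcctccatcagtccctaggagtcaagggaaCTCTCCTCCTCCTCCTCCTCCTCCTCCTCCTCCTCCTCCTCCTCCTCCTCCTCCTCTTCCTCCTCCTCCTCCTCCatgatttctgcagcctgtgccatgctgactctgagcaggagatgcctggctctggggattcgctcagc
Isl1, upstream: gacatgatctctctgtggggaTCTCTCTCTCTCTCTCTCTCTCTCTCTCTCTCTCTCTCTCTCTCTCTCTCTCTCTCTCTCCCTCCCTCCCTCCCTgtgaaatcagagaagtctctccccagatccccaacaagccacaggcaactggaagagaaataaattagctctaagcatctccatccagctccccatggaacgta
Fgf10: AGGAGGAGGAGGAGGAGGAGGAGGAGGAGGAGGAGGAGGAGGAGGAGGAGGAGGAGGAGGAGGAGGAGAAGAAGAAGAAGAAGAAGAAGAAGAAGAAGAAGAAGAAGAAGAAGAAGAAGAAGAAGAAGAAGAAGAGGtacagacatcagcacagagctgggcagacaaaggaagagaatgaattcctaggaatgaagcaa
Downstream of the TSS lay peaks at Jag1, a Notch ligand (chr2:136938999-136939198, − strand), Hopx, an atypical homeodomain protein of cardiac progenitors (chr5:77520159-77520358, − strand), Isl1 (chr13:117094715-117094914, − strand) and Wnt5a, a non-canonical Wnt ligand (chr14:29332100-29332299, + strand).
Jag1: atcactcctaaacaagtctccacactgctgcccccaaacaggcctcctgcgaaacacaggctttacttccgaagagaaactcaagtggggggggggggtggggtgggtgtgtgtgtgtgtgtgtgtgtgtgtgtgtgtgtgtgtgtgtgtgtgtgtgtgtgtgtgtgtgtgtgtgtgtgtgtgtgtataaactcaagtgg
Hopx: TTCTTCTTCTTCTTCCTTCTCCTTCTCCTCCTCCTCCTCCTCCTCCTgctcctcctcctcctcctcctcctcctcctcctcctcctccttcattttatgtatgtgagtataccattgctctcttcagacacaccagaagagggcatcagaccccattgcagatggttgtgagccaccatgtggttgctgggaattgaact
Isl1, downstream: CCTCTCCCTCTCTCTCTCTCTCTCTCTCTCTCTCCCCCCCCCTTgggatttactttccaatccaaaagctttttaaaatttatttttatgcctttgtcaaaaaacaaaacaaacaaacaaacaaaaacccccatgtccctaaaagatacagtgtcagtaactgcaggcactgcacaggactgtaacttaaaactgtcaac
Wnt5a: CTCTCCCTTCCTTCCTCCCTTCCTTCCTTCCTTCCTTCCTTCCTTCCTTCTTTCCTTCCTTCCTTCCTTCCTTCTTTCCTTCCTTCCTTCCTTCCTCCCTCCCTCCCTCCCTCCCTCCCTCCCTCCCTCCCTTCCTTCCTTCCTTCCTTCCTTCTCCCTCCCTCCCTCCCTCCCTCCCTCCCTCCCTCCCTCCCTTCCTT
The capitals covered from 44 bp to all 200 bp of each of these windows except that of Jag1, which had no capitals, with a longest run of 12 bp, and its centre held alternating T and G.

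For contrast, the listed gene with the closest upstream peak that held no run anywhere is shown. This was Chrd, which encodes chordin, a secreted Bmp antagonist (chr16:20731970-20732169, + strand). The longest run within this window was 13 bp.
Chrd: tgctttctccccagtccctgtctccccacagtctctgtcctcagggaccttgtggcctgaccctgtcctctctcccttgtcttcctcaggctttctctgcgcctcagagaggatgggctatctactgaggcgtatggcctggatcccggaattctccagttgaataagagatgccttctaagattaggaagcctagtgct

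Of the 29 genes in this set, Isl1 and the 28 targets, 10 had a proximal peak (34.5%), 5 of them upstream (17.2%) and 6 downstream (20.7%), with Isl1 in both counts. Among all 21896 protein-coding genes the shares were 21.1% with any proximal peak, 12.6% upstream and 10.2% downstream. The study chose these targets with its own Isl1 binding data in view, so their count is no independent evidence. The Isl1 locus held a peak of 434 bp at 3.74 kb upstream (chr13:117103420-117103854) and a peak of 592 bp at 5.08 kb downstream (chr13:117094518-117095110), 2 of the 33 peaks assigned to the gene at any distance. Both carried CT repeats on the sense strand. The Fgf10 peak lay 6.92 kb upstream (chr13:119496342-119496834), was 492 bp wide and held a purine run of 178 bp over its whole width. Myl3, a myosin light chain gene, had 1 peak in all, 3.84 kb downstream within an intron, with a purine run of 135 bp. Tgfb2, a ligand gene of the Tgf-beta family, had a peak of 618 bp in its first intron, 3.97 kb downstream, with a purine run of 153 bp. The Hopx peak, also in a first intron, lay 4.03 kb downstream (chr5:77520027-77520489) and its longest run was 141 pyrimidines. Wnt5a had a peak 7.61 kb downstream (chr14:29331985-29332413) and Wnt11 2.15 kb upstream (chr7:105981319-105981627). Mybpc3, a myosin-binding protein gene of the sarcomere, and Plxna2, a semaphorin receptor gene, had 1 peak each, at 1.38 and 1.08 kb upstream, and the Jag1 peak of 652 bp lay 3.16 kb downstream (chr2:136938772-136939424). Genes of this set without a proximal peak in the embryo list included Myocd, Mef2c, Hand2, Gata4, Tbx5, Ttn, Ryr2 and Smarcd3. The study took genes as bound from peaks assigned to the closest TSS, in embryos or in progenitors derived from embryonic stem cells. Absence from the window is therefore no statement on binding elsewhere at these genes.

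**Figure D1:**
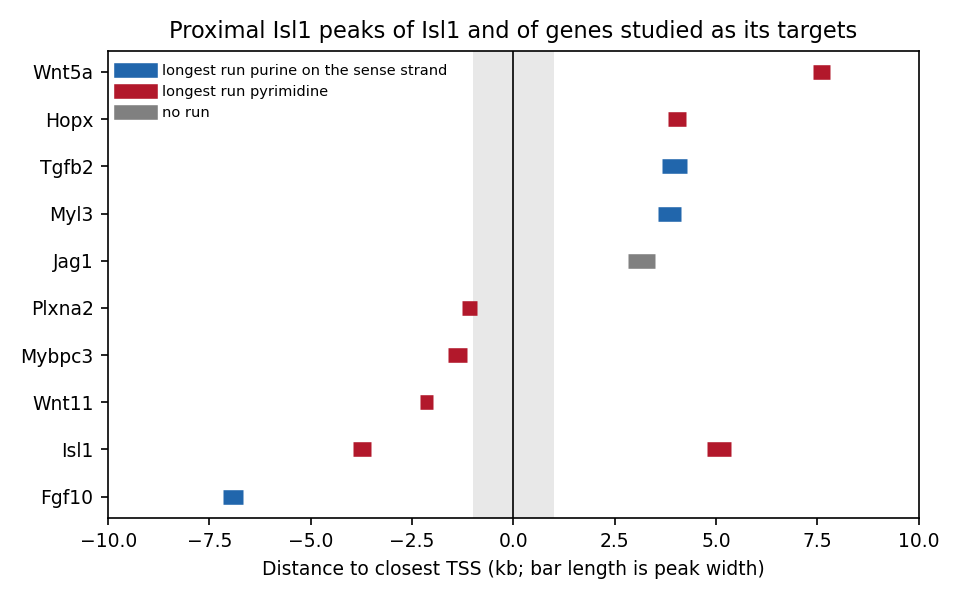
Proximal peaks of Isl1 and of 9 genes followed as its targets, drawn as bars at their distance from the closest TSS in kb (negative is upstream) with the length of each bar equal to the peak width. Colour gives the strand class of the longest run in the whole peak, and the grey band is the excluded 1 kb on each side. Isl1 is the gene with a peak on both sides, and the Jag1 peak is the one without a run.

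Proximal peaks were more frequent upstream than downstream of the TSS. Of the 5618 peaks, 55.7% lay upstream (95% Wilson interval 54.4 to 57.0%). The sequence whose closest annotated protein-coding TSS lies 1 to 10 kb away comprised 187 Mb upstream and 209 Mb downstream, so that 47.2% of this territory is upstream, and the share of peaks exceeded it (two-sided exact binomial test, adjusted p = 1.8e-36, Benjamini-Hochberg over 7 tests). Per Mb of territory there were 16.8 peaks upstream (exact Poisson interval 16.2 to 17.4) and 11.9 downstream (11.5 to 12.4), a ratio of 1.41.

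The upstream density was even across the window, between 15.8 and 17.8 peaks per Mb in each of the 9 steps of 1 kb. Downstream it was lowest nearest the TSS, with 9.88 peaks per Mb at 1 to 2 kb (8.74 to 11.1) and 9.47 at 2 to 3 kb (8.32 to 10.7), and lay between 11.8 and 13.3 from 3 to 10 kb. In each step the upstream value was above the downstream one. The intervals of the sides did not overlap in the 8 steps from 1 to 9 kb and overlapped at 9 to 10 kb, with 15.8 (13.9 to 17.8) and 12.5 (11.0 to 14.2).

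Purine or pyrimidine runs in the genome were likewise denser upstream. Runs of at least 50 bp, counted over the whole mm9 sequence of the territory whether or not a peak covered them, numbered 15224 upstream and 12560 downstream, or 81.5 per Mb (80.2 to 82.8) against 60.2 per Mb (59.1 to 61.2), a ratio of 1.35. Upstream, 27.8% of these runs lay under a peak of the list (27.1 to 28.5%), and downstream 26.3% did (25.5 to 27.1%, odds ratio 1.08, Fisher's exact test, two-sided, unadjusted p = 0.00442). When the upstream share of peaks was set against the upstream share of these runs, 54.8%, in place of the share of territory, the difference was no longer past the threshold (exact binomial p = 0.176), and the number of peaks per run was 1.04 times that downstream. This comparison was chosen after seeing the data. The part of the runs in the upstream excess was not tested further.

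**Figure D2:**
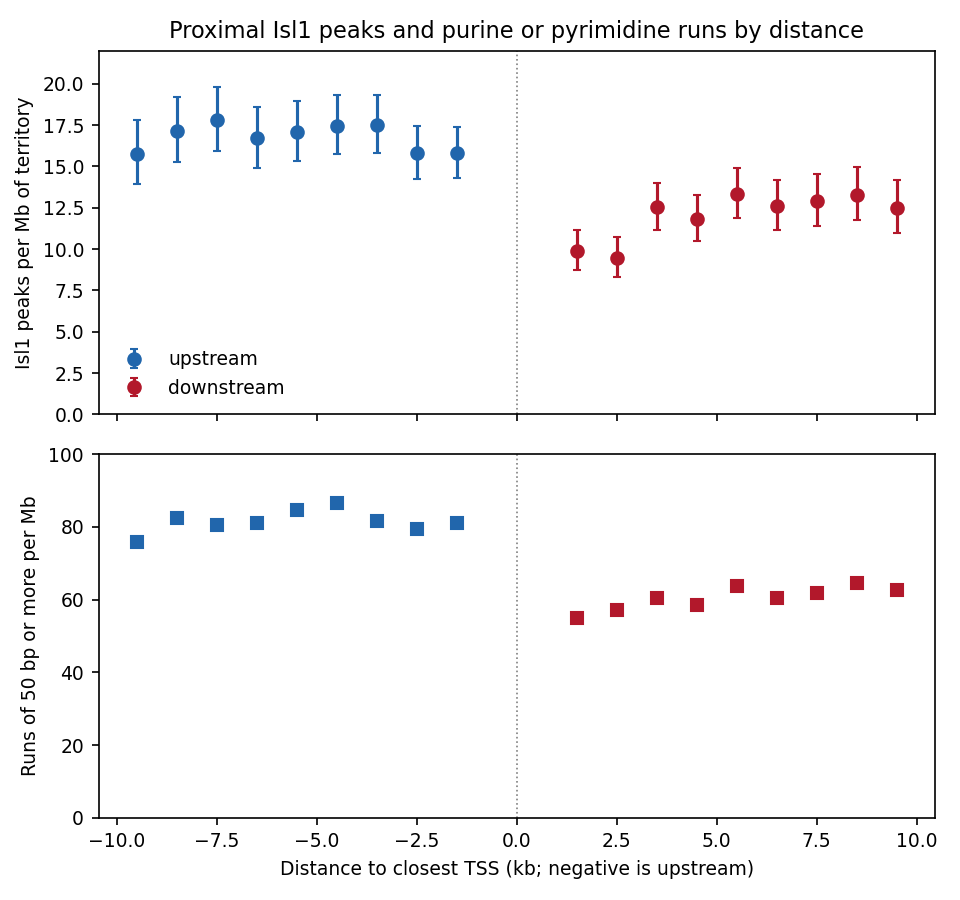
Top, proximal Isl1 peaks per Mb of territory in steps of 1 kb from the TSS, with exact 95% Poisson intervals as bars. Bottom, genomic purine or pyrimidine runs of 50 bp or more per Mb in the same steps, without error since they are counted over the whole genome. Upstream points lie above downstream points in both panels, between 15.8 and 17.8 against 9.47 and 13.3 peaks per Mb.

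Peak widths on the upstream and downstream sides were close. The median width was 468 bp upstream (quartiles 377 and 577 bp, range 176 to 1994 bp) and 461 bp downstream (372 and 572 bp, range 177 to 1430 bp). Peaks wider than 466 bp, the median of the whole list, made up 50.4% of upstream and 48.2% of downstream peaks, a difference of 2.22 percentage points (95% Newcombe interval −0.41 to 4.85, two-sided Fisher's exact test, adjusted p = 0.118). Median width was larger where the longest run in the whole peak was longer. A run was searched within its peak and cannot extend past it, so part of this order is built in. Peaks whose longest run was at least 50 and under 100 bp had a median width of 415 bp (2149 peaks), those with 100 to under 200 bp 484 bp (2076 peaks) and those with 200 bp or more 564.5 bp (946 peaks). The 161 peaks with no run of 25 bp anywhere had a median width of 568 bp, outside this order.

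The widest upstream peaks were those of Olfr467, an olfactory receptor gene (1994 bp, 5.03 kb, chr7:114952071-114954065), Ppp3r1, a calcineurin subunit (1400 bp, 6.61 kb, chr11:17051990-17053390) and the gene model Gm10591 (1143 bp, 4.16 kb, chr4:42396672-42397815). The Olfr467 peak covered the longest pyrimidine run among all proximal peaks, 1387 bp. Downstream they were those of 1700031F05Rik (1430 bp, 3.83 kb, chrX:100057150-100058580), Lemd3, an inner nuclear membrane protein (1420 bp, 3.61 kb, chr10:120412065-120413485), and Klhdc4 (1307 bp, 4.23 kb, chr8:124348583-124349890). The Lemd3 peak held a run of 25 bp and the Klhdc4 peak none.

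An unbroken stretch of 25 or more purines, or of 25 or more pyrimidines, lay within the central 200 bp of 2962 of 3129 upstream peaks and 2356 of 2489 downstream peaks, 94.7% on both sides. Whether input signal is also high over such runs was not tested, which bears on each peak and count given here. The sides did not differ past the threshold (difference 0.0063 percentage points, Newcombe interval −1.17 to 1.21, two-sided Fisher's exact test, adjusted p = 1). Windows of the same size 1 kb to either side of the proximal peaks held one in 5.08% of cases upstream and 3.98% downstream. The longest run in the whole peak had a median of 107 bp upstream and 105 bp downstream. It was centred a median of 39 and 36.5 bp from the peak midpoint. The alternating dinucleotide CT, repeated at least 4 times and read on either strand, lay in 55.4% of upstream (53.7 to 57.2%) and 56.2% of downstream windows (54.3 to 58.2%), against 5.69 and 4.88% at 1 kb.

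The proximal peaks differed in this feature from peaks nearer the TSS and by less from those farther away. Of the 1112 peaks within 1 kb of an NM_ TSS, 47.0% held a run (44.1 to 50.0%), 47.6 percentage points fewer than the 94.7% of proximal peaks (Newcombe interval 44.6 to 50.6, odds ratio 20.0, Fisher's exact test, two-sided, adjusted p = 8.4e-300). Of the 32529 NM_ peaks beyond 10 kb, 95.3% did, and the difference of proximal from distant peaks was −0.676 percentage points (interval −1.33 to −0.0712, adjusted p = 0.0419, Fisher's exact test). With runs searched over the whole peak, this last difference was no longer past the threshold (−0.237 points, unadjusted p = 0.302, Fisher's exact test), and with runs of 40 bp or more it was larger (−1.45 points, unadjusted p = 0.00023, Fisher's exact test).

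Peaks without a run were a small group of 300 around the midpoint, 167 upstream and 133 downstream, and 161 over the whole peak. The 161 peaks had a median GC content of 51.5% (quartiles 46.5 and 63.5%) at the centre, and 37 of them (23.0%) exceeded 65%. Peaks without a run within 1 kb of the TSS were of another composition: their median GC content was 82.5%, and 543 of 549 exceeded 65%. Among the proximal peaks with a run, 1.85% exceeded 65%. Listed genes with a peak that held no run anywhere were Chrd (1.13 kb upstream), Gdf3, a Tgf-beta family ligand (5.75 kb upstream, chr6:122565490-122566227), Tcap, the titin cap of the sarcomere (2.41 kb upstream, 890 bp wide, chr11:98242271-98243161), Jag1 and Hes1, a transcriptional repressor that responds to Notch. The Hes1 and Tcap windows had a GC content of 80.5 and 76.0%, and those of Jag1, Chrd and Gdf3 of 53.0 to 58.0%. Tcap had a second peak at 1.27 kb upstream, with a purine run of 110 bp.

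Homeodomain and Gata motifs were less common at the peak centres than beside them. The core TAAT, searched on both strands, lay in 33.8% of upstream windows (32.2 to 35.5%) and 34.9% of downstream windows (33.1 to 36.8%), against 68.6 and 66.9% of windows at 1 kb. The longer CTAATG, which contains this core, lay in 2.30 and 3.13% of windows against 6.999 and 7.43%, and GATAA in 10.2 and 11.4% against 27.1 and 25.4%. Each of these motifs holds both purines and pyrimidines, so none can lie within a run. In the 300 windows without a run, TAAT was found in 36.0% (30.8 to 41.6%) against 65.0% at 1 kb, and CTAATG in 7 windows (2.33%, 1.13 to 4.74%) against 5.67%. Windows without a run were not matched in composition to those at 1 kb. They include the TG repeat of Jag1 and the Hes1 window with 80.5% GC. Over the whole list TAAT lay in 35.3% of windows. These are counts of letters and were not tested.

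The strand of the run differed between the sides. Where the longest run near the midpoint was of a single kind and the strand of the gene was known, it was purine on the sense strand in 1399 of 2944 upstream peaks (47.5%, 45.7 to 49.3%) and in 980 of 2333 downstream peaks (42.0%, 40.02 to 44.02%). The difference was 5.51 percentage points (Newcombe interval 2.81 to 8.20, odds ratio 1.25, Fisher's exact test, two-sided, adjusted p = 0.00012). Downstream peaks that overlapped the gene had purines on the sense strand in 40.1% of 1792 cases (37.9 to 42.4%, adjusted p = 1.8e-06 against upstream, Fisher's exact test), and those past its end in 48.2% of 541 (44.1 to 52.5%). Among first-intron peaks the share was 39.8% of 1072 (36.9 to 42.8%).

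A lower purine share downstream was also found among the runs that no peak covered. Of the genomic runs of at least 50 bp outside the peaks, 47.7% of 10989 upstream (46.8 to 48.6%) and 40.1% of 9258 downstream (39.1 to 41.1%) were purine on the sense strand. Over all runs, covered or not, the values were 47.4 and 40.4%, a difference of 6.93 percentage points (two-sided Fisher's exact test, unadjusted p = 5.1e-31, chosen after seeing the data). Peaks beyond 10 kb held purines on the sense strand in 52.0% of cases upstream and 43.2% downstream, and peaks within 1 kb in 57.3 and 39.2%.

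**Figure D3:**
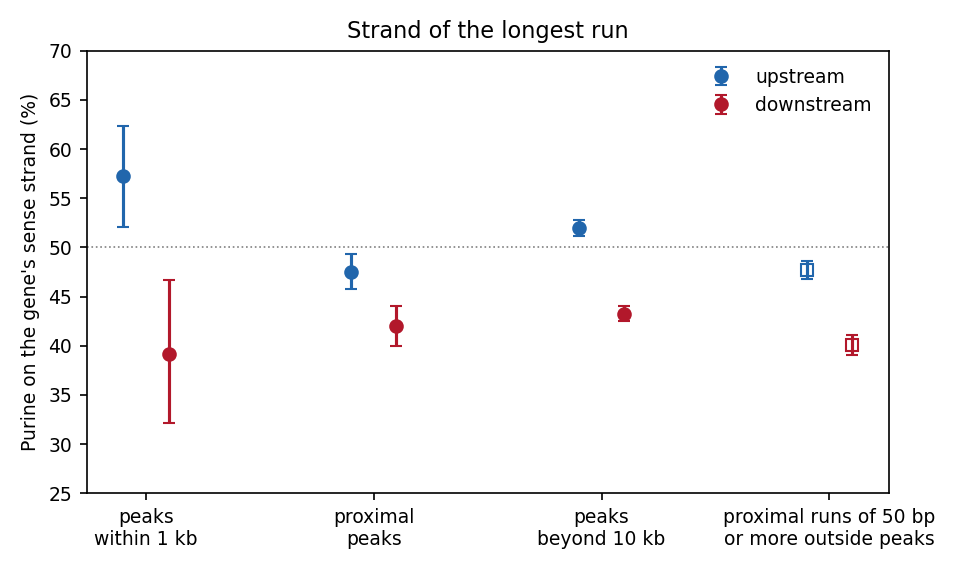
Share of peaks whose longest run was purine on the sense strand of the assigned gene, in percent with 95% Wilson intervals, for upstream and downstream peaks within 1 kb, from 1 to 10 kb (proximal) and beyond 10 kb of the TSS. Open squares are genomic runs of at least 50 bp in the proximal territory that no peak covered, where 47.7% upstream and 40.1% downstream were purine on the sense strand.

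By the GENCODE annotation of the same build, 82.8% of upstream peaks had their midpoint between genes, 219 peaks had it in an intron of another gene and 9.30% in an intron of the assigned gene, which then has an annotated start further upstream. Downstream, 74.2% lay in an intron of the assigned gene, 21.3% between genes and 2.85% in an intron of another gene, and first introns of the assigned gene alone held 1140 peaks (45.8%, 43.9 to 47.8%). Exons held 28 upstream and 40 downstream peaks, 0.895 and 1.61%. Coding sequence held 3 and 6 of these. A second protein-coding TSS lay within 10 kb of the midpoint for 14.5% of upstream and 16.7% of downstream peaks, so that the assigned gene is 1 of several near neighbours there.

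The proximal peaks were assigned to 4694 gene symbols, of which 4615 were protein-coding in RefSeq. These made up 21.1% of 21896 protein-coding genes. Upstream peaks were assigned to 2755 genes (12.6%) and downstream peaks to 2238 (10.2%), and 378 genes had both, 13.7% of the upstream and 16.9% of the downstream genes. A single proximal peak was found for 3853 genes, 2 peaks for 645 and 3 or more for 117. Of all 4694 symbols, 2420 also had a peak beyond 10 kb, 303 had one within 1 kb, and 2161 had no listed NM_ peak outside the window.

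Whether a gene had a proximal peak varied with how many long runs its neighbourhood held. Among protein-coding genes found in both annotations, 2.45% of the 7152 genes without a run of 50 bp at 1 to 10 kb had a proximal peak, against 22.5% of 5052 genes with 1 run, 38.1% of 2893 with 2, 48.3% of 1613 with 3 and 59.1% of 1507 with 4 or more. Most proximal peaks themselves held a run of 50 bp or more, so the low share of genes without such a run follows in part from that. The amount of territory per gene was not accounted for either, so these shares are a description. Over the whole territory, 27.8% of such runs upstream and 26.3% downstream lay under a peak. Single genes lay on either side of this. At Isl1, 2 of 3 such runs lay under a peak, at Kdr 3 of 3, at Etv2 2 of 2 and at Tbx1 1 of 1. Gata4 and Myocd each had 3 long runs and none under a peak, and Msx2, Ttn and Wnt2 each had 2 and none.

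**Figure D4:**
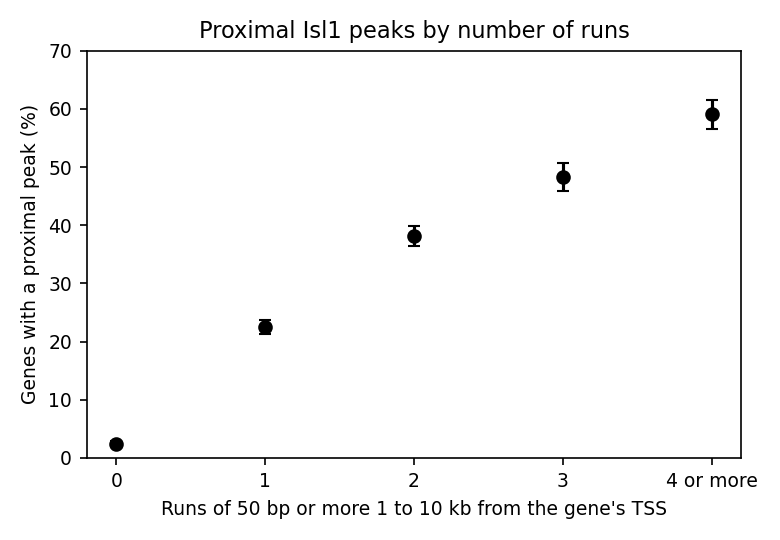
Share of protein-coding genes with a proximal Isl1 peak, in percent with 95% Wilson intervals, by the number of genomic purine or pyrimidine runs of 50 bp or more that lay 1 to 10 kb from the gene's TSS. The share was 2.45% without such a run and 59.1% with 4 or more.

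Genes of heart development and signalling were examined in 13 lists of 482 genes in all. Of these, 132 (27.4%, 23.6 to 31.5%) had a proximal peak, against 21.1% of all protein-coding genes. 86 had one upstream (17.8%, against 12.6%) and 58 downstream (12.0%, against 10.2%). The lists were chosen with earlier results of these data known, so these shares and those of each list below are no independent evidence. A run of 50 bp lay 1 to 10 kb from the TSS in 68.4% of the listed genes found in the annotation and in 60.7% of all genes. By list, this share ran from 44.4% for SWI/SNF subunits to 83.9% for Hedgehog and retinoic acid genes. The mean number of such runs per gene found was 1.59 in the lists and 1.28 over all genes. By list, the mean ran from 1.04 for Notch genes to 2.13 for endothelial and blood genes. The part of such runs in the higher share of listed genes with a proximal peak was not tested.

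Of 54 transcription factors of the heart, 13 had a proximal peak (24.1%, 14.6 to 36.9%, against 21.1% of all genes). Peaks on both sides were found for Isl1, for Irx4, a ventricular homeodomain factor, at 3.43 kb upstream (chr13:73394326-73394703) and 5.55 kb downstream (chr13:73403241-73403747), and for Nr2f2, an atrial and venous nuclear receptor, at 9.27 kb upstream and 8.03 kb downstream. Gata6, a zinc-finger factor of cardiac mesoderm and endoderm, had peaks at 6.62 and 7.50 kb upstream (chr18:11045737-11046030 and chr18:11044742-11045264). Tcf21, an epicardial and pharyngeal mesoderm factor, had peaks at 5.83 and 6.84 kb downstream. Tbx1, a T-box factor of the second heart field, had its only listed peak at 1.82 kb upstream (chr16:18592264-18592911), 647 bp wide with a purine run of 251 bp.

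Genes of the Fgf pathway had a proximal peak in 10 of 35 cases (28.6%, 16.3 to 45.1%, against 21.1% of all genes). Fgfr4, a receptor, had peaks at 3.20 kb upstream (chr13:55250676-55251288) and 5.71 kb downstream (chr13:55259530-55260258), 612 and 728 bp wide. Fgf13, an intracellular member of the family, had 3 proximal peaks, at 2.10 and 7.83 kb upstream and 9.67 kb downstream of TSSs that lie far apart. Fgf20 had peaks at 6.37 and 8.45 kb downstream. The receptor gene Fgfr1 (3.05 kb), Fgf5 (5.76 kb) and Spry4, an inhibitor of the pathway (8.29 kb), had 1 upstream peak each.

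In the Wnt pathway 16 of 53 genes had a proximal peak (30.2%, 19.5 to 43.5%, against 21.1% of all genes). Of these, 12 had one upstream (22.6%, against 12.6%) and 5 downstream (9.43%, against 10.2%). Beside Wnt11 and Wnt5a, the ligand gene Wnt6 had a peak on each side, at 9.13 kb upstream and 8.14 kb downstream (chr1:74826289-74826925). Wif1, a secreted Wnt inhibitor, had 3 upstream peaks at 1.15, 7.50 and 9.60 kb, the farthest of them 688 bp wide with a pyrimidine run of 332 bp (chr10:120461112-120461800). The Wnt feedback gene Axin2 had a peak at 1.88 kb upstream, the nuclear effector Lef1 at 8.85 kb upstream and the antagonist Dkk1 at 2.85 kb downstream.

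Bmp and Tgf-beta genes had a proximal peak in 17 of 47 cases (36.2%, 24.0 to 50.5%, against 21.1% of all genes). Downstream peaks were found for 10 of them (21.3%, against 10.2%), the highest downstream share among the lists, with 7 upstream and none on both sides. In its neighbourhood, 83.0% of the list had a run of 50 bp, against 60.7% of all genes. This share counts runs on both sides of the TSS and is not particular to the downstream side. The part of the runs was not tested. The inhibitors of differentiation, which are Bmp target genes, had proximal peaks at Id1 (4.48 kb upstream), Id2 (6.13 and 9.24 kb downstream) and Id3 (9.70 kb downstream). The ligand genes Bmp4 (4.92 kb upstream, chr14:47014982-47015556) and Bmp10 (6.92 kb upstream, chr6:87371904-87372237) and Bmp7 (4.14 kb downstream, in its first intron) had 1 proximal peak each. The antagonists Nog and Grem1 had peaks at 9.62 and 7.46 kb downstream, and the receptor gene Bmpr1a at 5.42 kb upstream, its only listed peak.

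Notch genes had a proximal peak in 7 of 25 cases (28.0%, 14.3 to 47.6%, against 21.1% of all genes). Rbpj, the DNA-binding effector of the pathway, had peaks at 4.89 and 5.07 kb upstream of separate start sites and at 5.65 kb downstream, and the ligand gene Dll4 had its only peak at 1.16 kb upstream (chr2:119150118-119150612). Hedgehog and retinoic acid genes had a proximal peak in 8 of 31 cases (25.8%, 13.7 to 43.2%, against 21.1% of all genes). Of these, 6 had one upstream (19.4%, against 12.6%) and 2 downstream (6.45%, against 10.2%). Boc, a Hedgehog co-receptor, had peaks at 2.59 and 9.12 kb upstream, and Hhip, which sequesters the ligand, and Gli2, a transcriptional effector, had first-intron peaks at 3.46 and 5.16 kb downstream.

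Sarcomere genes had a proximal peak in 8 of 34 cases (23.5%, against 21.1% of all genes). Beside Mybpc3, Myl3 and Tcap, the regulatory light chain gene Myl2 had a peak at 1.35 kb upstream (chr5:122549289-122549988) and Tnni1, a troponin I gene of the embryonic heart, at 1.95 kb upstream. Cardiac ion channels and calcium-handling genes had a proximal peak in 13 of 33 cases (39.4%, 24.7 to 56.3%, against 21.1% of all genes), 7 upstream and 6 downstream. This was the highest share among the lists, but its interval overlapped those of all other lists except the neural list. Atp2a2, the calcium pump of the sarcoplasmic reticulum, had a peak at 6.20 kb upstream (chr5:122958154-122958707), the connexin gene Gjc1 at 3.28 kb upstream and the calcium channel gene Cacna1g at 3.94 kb downstream. A run of 50 bp was present near 72.7% of this list, against 60.7% of all genes, with a mean of 1.85 runs per gene against 1.28.

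The study examined the SWI/SNF chromatin remodelling complex as a partner of Isl1. Of 27 subunits, 5 had a proximal peak (18.5%, 8.18 to 36.7%, against 21.1% of all genes), 4 upstream and 1 downstream. A run of 50 bp lay near 44.4% of this list, against 60.7% of all genes. Actl6b, a neuronal subunit, had peaks at 3.17 and 5.47 kb in its first intron. Dpf3, a subunit of heart and muscle, had a peak at 2.50 kb upstream (chr12:84830906-84831471), Arid1a at 9.29 kb and Smarca2 at 2.05 kb upstream. Guidance genes of axons and vessels had a proximal peak in 15 of 66 cases (22.7%, 14.3 to 34.2%, against 21.1% of all genes). Robo2, a Slit receptor, had peaks at 4.20 and 6.16 kb upstream, and Sema4a, a transmembrane semaphorin, at 1.48 and 3.93 kb upstream, the nearer one with a pyrimidine run of 545 bp in a peak of 706 bp.

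Lists for other cell types that the dissected region could hold were counted in the same way. Endothelial and blood genes had a proximal peak in 11 of 30 cases (36.7%, 21.9 to 54.5%, against 21.1% of all genes), 10 of them upstream (33.3%, against 12.6%). Etv2, a factor of endothelial and blood specification, had peaks at 2.18 kb upstream (chr7:31422800-31423301) and 3.97 kb downstream (chr7:31416599-31417205). Kdr, a Vegf receptor gene, had peaks at 4.96 kb upstream (chr5:76379154-76379676) and 1.12 kb downstream (chr5:76373174-76373498), and the Ets factor Erg at 3.18 kb upstream and 8.93 kb downstream. Endoderm genes had a proximal peak in 8 of 22 cases (36.4%, 19.7 to 57.0%, against 21.1% of all genes). Peaks lay on both sides of Epcam, an epithelial adhesion gene, at 2.19 kb upstream and 3.23 kb downstream. Prox1 had upstream peaks at 1.48 and 7.11 kb. Long runs lay near 73.3% of the endothelial and 76.2% of the endoderm genes, against 60.7% of all genes. Their mean number per gene was 2.13 and 2.10, against 1.28 over all genes. Neural and neural crest genes had a proximal peak in 2 of 30 cases (6.67%, 1.85 to 21.3%, against 21.1% of all genes). These were Tfap2b, a neural crest factor, at 1.44 kb upstream and 1.63 kb downstream, and Neurog2, a proneural factor, at 3.18 kb downstream. A long run was near 63.0% of the neural genes found, against 60.7% of all genes, with a mean of 1.22 runs per gene against 1.28.

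**Figure D5:**
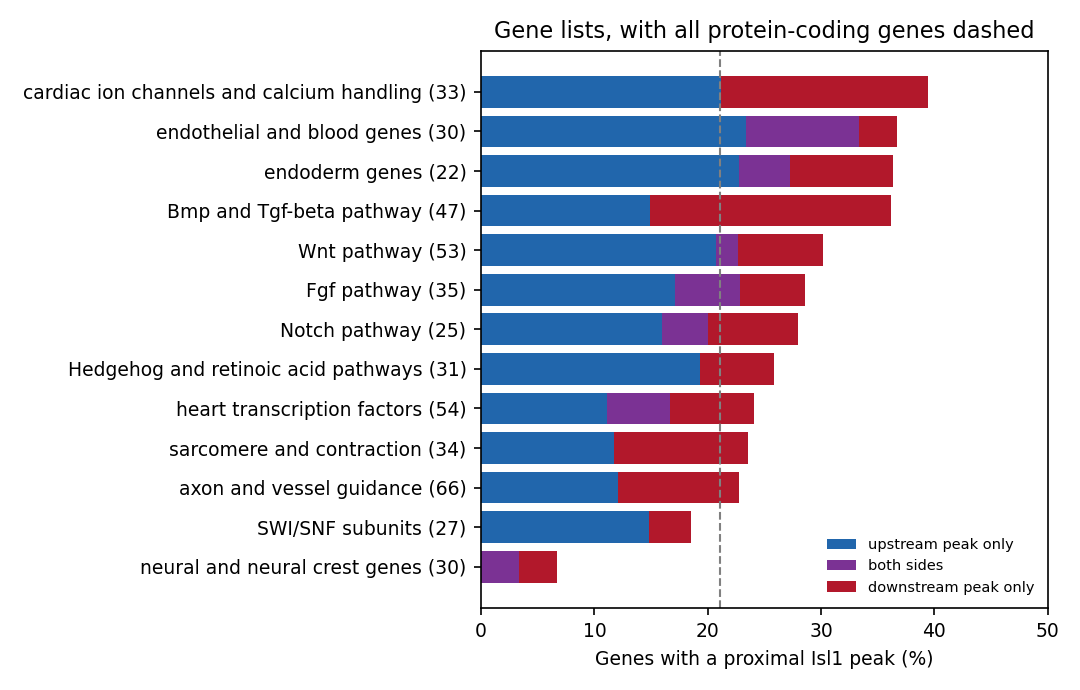
Share of the genes of each list with a proximal Isl1 peak, in percent, split into genes with an upstream peak only, with peaks on both sides and with a downstream peak only; the number of genes is in parentheses and the dashed line is the 21.1% of all protein-coding genes. Shares ran from 6.67% for neural genes to 39.4% for cardiac ion channels and calcium handling.

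None of the genes with the most proximal peaks was in the lists above. Gm3383 had 7 upstream peaks, Gm3500 had 4 upstream and 1 downstream, and Tmem254b had 6 downstream, all on chromosome 14. With 4933409K07Rik, which had 6 peaks on chromosome 4, they led the count. These gene models belong to duplicated regions of the mouse genome, where reads from near-identical copies cannot be placed with certainty, so their counts are uncertain. The wide Gm10591 peak lay near peaks of 4933409K07Rik on chromosome 4 and may share this uncertainty. Rnf144b, a ubiquitin ligase gene, had 5 upstream peaks of 416 to 591 bp, and Rfx3, a ciliary transcription factor gene, had 1 upstream and 4 downstream. A further 13 genes had 4 peaks each, among them Slc1a2, a glutamate transporter gene (4 upstream), Klhdc4 (4 downstream, 873 to 1307 bp wide), Sp6 (1 upstream and 3 downstream), Tnfaip6 and Ubash3b. The other 8 were 3110039I08Rik, Mup15, Nipsnap1, Tbata, Frmpd4, Pglyrp2, Grxcr2 and Cfap126. Mup15 peaks at separate places (chr4:60157629-60158048 and chr4:61105643-61106052) both lay 5.11 kb upstream, so the Mup15 count may be uncertain in the same way.

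The innermost upstream member lay 1003 bp from the TSS of Olfr557 and was 324 bp wide, and the closest peak left out on that side lay 999 bp from Tnmd (548 bp wide). Downstream, the innermost member lay 1002 bp from Tmem255a (403 bp wide) and the closest one left out 999 bp from Katna1 (417 bp wide). At the outer edge, the upstream member at Emc7 lay at 9997 bp and the peak left out at Evi5 at 10010 bp. The downstream member at Mettl15 lay at 9992 bp and the peak left out at Slc18b1 at 10002 bp. Each of these 8 peaks held a run, of 58 to 307 bp.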

How the data were processed

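The study pooled chromatin of cardiogenic mesoderm and heart region from E8.25 to E9 mouse embryos for 1 Isl1 ChIP sample and 1 input sample (not analysed here). According to the methods and labels, the authors aligned reads to mm9 with Bowtie2, marked duplicates with Picard 1.136, called peaks with MACS without a fragment model, removed blacklisted regions and annotated peaks with the nearest TSS in HOMER. Deposited columns hold positions and distances in bp, with no count, signal or p-value. The study's methods and legends describe replicate ChIP-Seq experiments whose common peaks were kept with bedtools for some analyses, but do not say whether the deposited embryo list holds such common peaks or those of a single call. Nor is it given whether its starts count from 0 or 1. Positions are printed as deposited, and the windows of printed sequences count from 1.

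One repeated header line was skipped. Members and gene lists were chosen with earlier results of these data known, including the purine or pyrimidine runs. The genome NCBIM37 (mm9) and its GENCODE vM1 annotation gave sequence, gene structure and territory, and RefSeq symbols (GRCm38.p6, names only) gave the background of protein-coding genes. Gene strand was inferred from several distances to 1 TSS in the list (3119 peaks) or from GENCODE (2457), and was unknown for 42. Both sources gave the same strand for 99.9% of peaks with both. The TSS implied by the listed distance lay within 100 bp of a GENCODE TSS of the gene for 89.8% of proximal peaks.

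Runs were unbroken stretches of one base class, 25 bp or longer, in the central 200 bp, and for named genes in the whole peak. Intervals are 95% Wilson intervals for shares, Newcombe intervals for differences and exact Poisson intervals for densities, and cover counting error only. Some shares are given without an interval, among them those of all genes and of the study's targets. Counts were compared by exact binomial or two-sided Fisher's exact tests at 0.05, adjusted by Benjamini-Hochberg over 7 tests, with peaks treated as independent although they come from 1 list and some share a gene. Tests on genomic runs were outside these 7, were not adjusted and treated runs as independent. The scripts were tested on simulated data. Named genes were listed genes with peaks on both sides, several peaks or a place among the study's targets, with further listed genes as examples, the 10 genes with the most peaks with ties, the 3 widest peaks per side and the peaks nearest the limits. Alternatives were another window, all RefSeq identifiers, wider peaks, GENCODE starts, 1 peak per gene and side, longer runs and whole peaks. Python 3.11.15, scipy 1.17.1, pandas 2.3.3 and pysam 0.24.0 were used. Some named genes and some sequences that these rules select are not reported here.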

Additional observations from a re-analysis of the deposited data

How the results depend on the processing

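Counts moved with the window and with width by construction. From 1 to 5 kb there were 2679 proximal peaks, 2406 genes and 68 listed genes, and with peaks wider than the median of the list 2778, 2493 and 75. Peaks without a run at the midpoint left 290 genes. The run share of proximal peaks differed from that of peaks beyond 10 kb by −0.237 percentage points when the whole peak was searched, and no longer past the threshold (Fisher's exact test, p = 0.302). Against the long runs of the same territory, a comparison chosen after seeing the data, the upstream share of 55.7% and the ratio of 1.04 peaks per run were not past the threshold (exact binomial test, p = 0.176). The other 26 alternative values, among them the upstream share (54.6 to 58.3%) and the density ratio (1.35 to 1.53), kept their direction and their side of the threshold, or lay within 1.5 times the reported count, except that the difference in run share between the sides, which was not past the threshold, was −0.534 points with runs of 40 bp. No paired analysis was possible because a single ChIP sample was listed. Depth, peak strength and replicate error are unknown and limit every comparison.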

Other observations

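The same distance window held 834 peaks assigned to non-coding RefSeq transcripts (NR_ identifiers), which the rule left out. They belonged to 695 gene symbols, and 393 lay upstream and 441 downstream (47.1% upstream, against 55.7% for NM_ peaks, with no test made). Their median width was 468 bp, and 92.1% had a purine or pyrimidine run of 25 bp or more near the midpoint.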
